A study of Homo sapiens with 3 samples.

Results

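The regions described here are the very high peaks of RNA recovered with HaloTag fusions of RPL22 or RPL22L1 in HCT116 cells whose highest point, the summit, lay outside every gene annotated as a snoRNA, snRNA or tRNA. They were chosen by a deposited peak score of 10000 or more on chromosomes 1 to 22 and X and by the place of the summit in the RefSeq annotation of GRCh38. There were 208 of them among 408413 peaks in all. The deposited peak list of the cells labelled RPL22 -HaloTag, called the RPL22 set below, gave 89, which is 57.8% of its 154 very high peaks (exact Clopper-Pearson 95% interval 49.6 to 65.7). The list of the cells labelled RPL22L1HaloTag, the RPL22L1 set, gave 119, or 53.4% of 223 (46.6 to 60.1). The score is the authors' own value for each peak and chose the regions, so scores and ranks are a description within a set and are not compared in size between sets. Where a region is said to have a peak or no peak in the other set, this means a peak that shares a base with it, whatever lies elsewhere in the gene.

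HCT116 is an established human colorectal carcinoma line, grown here in McCoy's5a medium with 10% FBS. GoldCLIP links RNA to a HaloTag fusion by crosslinking and recovers it on beads without a gel. There was 1 library per genotype, so nothing was tested between genotypes and intervals cover counting error only. The library of cells with HaloTag alone was not analysed here, so no value has a background from the tag. The labels do not say how the fusions were expressed or whether a line was 1 clone. The sets held 154000 and 254413 peaks, and the number of reads behind them is unknown. Among 10 fixed genes of colon epithelium 7 held a summit in each set and KRT20, CDX1 and LGALS4 held none, while 1 of 5 genes of blood cells did so in each.

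RPL22 belongs to the large subunit of the ribosome, and RPL22L1 is a closely related paralog. tRNAs are made by RNA polymerase III as precursors with a leader and a trailer that are cut off, and transcription ends at a run of T. Small Cajal body RNAs (scaRNAs) guide the modification of spliceosomal snRNAs, Y RNAs bind the Ro60 protein and vault RNAs are part of the vault particle. The genome also carries many pseudogene copies of these short RNAs.

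The largest group of regions lay at the edge of a tRNA gene, most of them across its end, and the bases under a few of them show what such a peak covers. Of the 208 regions 10 shared bases with a RefSeq promoter window of GRCh38, a stretch of 300 bases around the start of some other gene, and the bases below were read from those windows. Capitals mark bases inside the tRNA gene and lower case marks the flank beyond it. The strand was taken from the letters GTTCNANNC, a pattern within tRNA genes that was searched on both strands and was found in 2626 of 35116 promoter windows (7.48%).
TRT-TGT6-1, RPL22 set, chr5:181191671-181191701, minus strand: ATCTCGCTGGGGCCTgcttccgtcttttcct
TRL-AAG2-4, RPL22 set, chr16:22297207-22297237, plus strand: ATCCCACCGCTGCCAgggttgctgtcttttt
TRL-AAG2-4, RPL22L1 set, chr16:22297171-22297238, plus strand: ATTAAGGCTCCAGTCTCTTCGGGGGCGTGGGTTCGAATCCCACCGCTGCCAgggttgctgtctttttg
TRP-TGG3-2, RPL22 set, chr14:20684035-20684103, plus strand: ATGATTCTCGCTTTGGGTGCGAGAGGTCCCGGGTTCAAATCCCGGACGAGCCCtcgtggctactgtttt
TRP-TGG3-2, RPL22L1 set, chr14:20684073-20684103, plus strand: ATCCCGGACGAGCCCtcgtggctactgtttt

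In all 3 of these genes the summit lay downstream of the gene's 3′ end, by 3 bases at TRT-TGT6-1, and each flank held TTTT. Of all promoter windows 6.39% held TTTT on the gene's strand in their first 16 bases. These windows are not flanks of tRNA genes, whose transcription ends at a run of T. Flanks of tRNA genes without a peak were not read, so the TTTT is not taken as a trait of the peaks. The peaks of the RPL22 set at TRT-TGT6-1 and TRL-AAG2-4 covered 15 bases of the gene and 16 bases of flank. At TRL-AAG2-4 the peak of the RPL22L1 set reached 51 bases into the gene and ended 1 base further out, whereas at TRP-TGG3-2 the wider peak, with 53 bases in the gene, was that of the RPL22 set. At TRF-GAA2-1 and TRM-CAT6-1 a window held only part of the peak and the pattern that gives the strand was not found in it, so neither is shown.

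The regions fell into 9 groups by place. In the RPL22 set 33 lay at the edge of a tRNA gene, 5 in scaRNA genes, 5 in pseudogene copies of a small RNA, 2 at the edge of a tRNA pseudogene, 1 in MALAT1, 4 in other lncRNA genes, 20 in protein-coding genes, 18 outside genes and 1 elsewhere. In the RPL22L1 set the same groups held 32, 10 (scaRNA, Y RNA and vault RNA genes together), 8, 2, 11, 6, 26, 21 and 3. The regions are therefore not free of small RNAs: the first 4 groups made up 45 of 89 (50.6%, 39.8 to 61.3) in the RPL22 set and 52 of 119 (43.7%, 34.6 to 53.1) in the RPL22L1 set. A share over all peaks is given here only for the edges of snoRNA, snRNA and tRNA genes, below. The 4 groups together and the other places are thus not read as more or less common than among all peaks. RefSeq files scaRNAs, Y RNAs and vault RNAs under types that the choice of regions did not leave out, and without these and the other small RNA types 84 and 109 regions remained. The annotation used gives gene bounds only, so exons, introns and UTRs were not told apart.

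**Figure D1:**
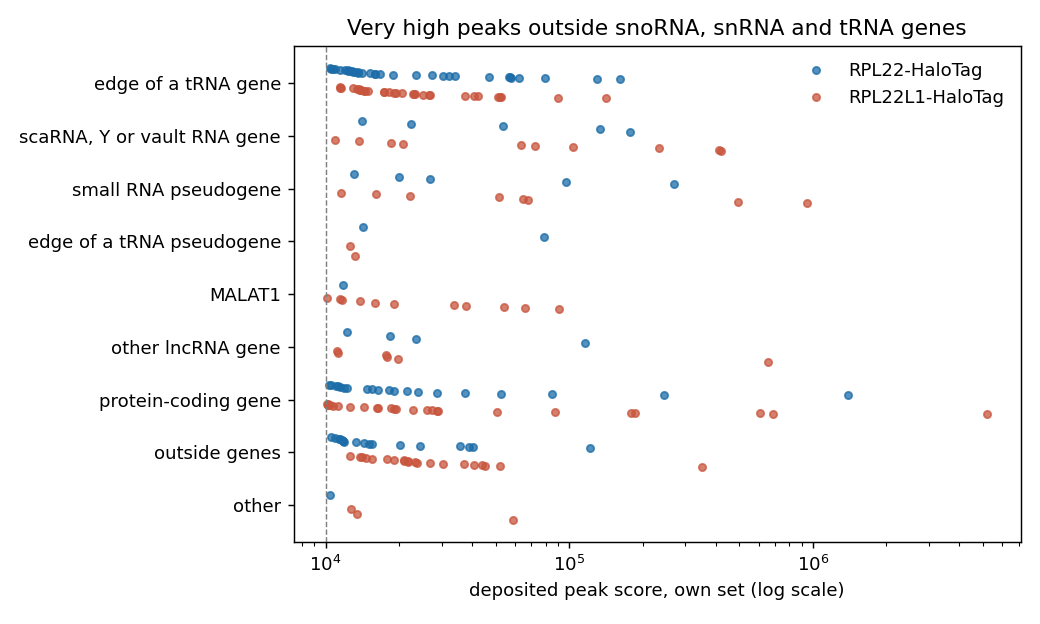
Deposited peak score on a log axis for each very high peak outside snoRNA, snRNA and tRNA genes, by place, with 1 point per peak (89 in the RPL22-HaloTag set and 119 in the RPL22L1-HaloTag set) and the threshold of 10000 as a dashed line. The highest point of each set, 1395972 and 5210944, is the same place in the protein-coding gene ZNF773.

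Regions at tRNA genes were counted when the peak touched the gene or its summit lay within 100 bases of it. Among all peaks with a summit outside snoRNA, snRNA and tRNA genes, 0.0834% of the RPL22 set and 0.078% of the RPL22L1 set touched or neighboured such a gene in this way. Among peaks scoring from 1000 to below 10000 the shares were 53 of 445 (11.9%, 9.05 to 15.3) and 96 of 1812 (5.30%, 4.31 to 6.43). Among the very high peaks they were 33 of 89 (37.1%, 27.1 to 48.0) and 32 of 119 (26.9%, 19.2 to 35.8), and the gene was a tRNA gene in every case: no region of either set lay at the edge of a snoRNA or snRNA gene. A reach of 1000 bases gave the same 33 and 32.

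The peaks sat close to the gene's end. Of the 33 regions in the RPL22 set 31 shared bases with the tRNA gene, as did 30 of 32 in the RPL22L1 set. The summit lay a median of 2 bases outside the gene in the RPL22 set and 3 in the RPL22L1 set, with a range of 1 to 87 in both, and among peaks that touched the gene it was at most 9 and 24 bases away. It was within 2 bases of the end in 23 of 33 (69.7%, 51.3 to 84.4) and 12 of 32 (37.5%, 21.1 to 56.3). Exactly 15 bases of the gene were covered in 11 of 33 and 7 of 32. The smallest peak width in either set was 30 bases, and a peak of that width centred on the gene's end covers 15. Of all edge regions only 3 of 33 and 2 of 32 had that width, and why 15 bases recurred was not tested. The lower-coordinate end of the gene was the nearer one for 18 of 33 and 15 of 32. Gene strand was not used in this count, so it does not tell the 5′ end of a gene from the 3′ end. Very high peaks with the summit inside a tRNA gene were fewer, 13 and 17, and their summits were a median of 12 and 11 bases from the nearer end, with 0 and 1 within 2 bases of it. Of all very high summits in or at tRNA genes, 33 of 46 (71.7%, 56.5 to 84.0) and 32 of 49 (65.3%, 50.4 to 78.3) thus lay outside the annotated gene.

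**Figure D2:**
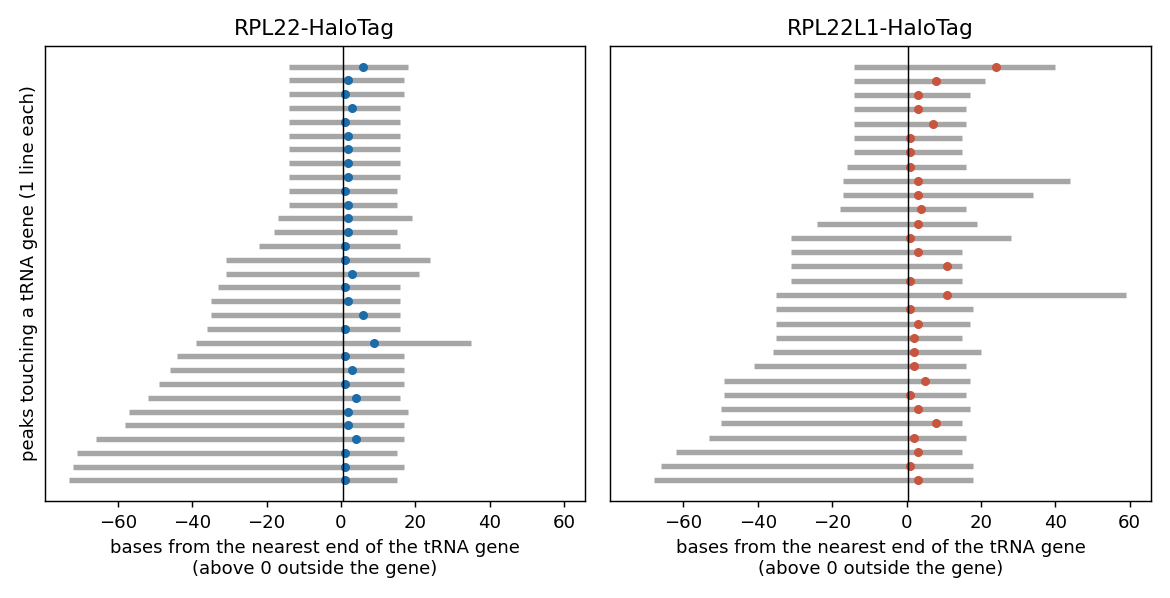
Extent (grey lines) and summit (points) of each very high peak that touched a tRNA gene, 31 in the RPL22-HaloTag set and 30 in the RPL22L1-HaloTag set, in bases from the nearer end of the gene, with values above 0 outside the gene. A summit outside the gene follows from the choice of regions. The 13 and 17 very high peaks with the summit inside a tRNA gene are not drawn. The median over all edge regions is 2 and 3 bases outside the gene's end, while the reach into the gene differs widely.

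The tRNA genes with such a region numbered 42 of 443 annotated, of which 23 had one in both sets. At all 23 the summits of both sets lay at the same end of the gene, at 19 of them within 2 bases of each other, and the largest gap was 5 bases. The bounds matched at 1 gene only, TRL-CAG1-7, with the RPL22L1 peak the wider at 15 and the RPL22 peak at 7. The genes covered 14 amino acids as RefSeq names them. By number of genes leucine led with 10 of 32, followed by serine with 7 of 26 and glutamine with 6 of 19. Isoleucine had 3 of 22, proline 3 of 20 and methionine 2 of 11. This order is by number of genes and not by share. None was a gene for arginine (0 of 26), lysine (0 of 27), glutamate (0 of 15) or aspartate (0 of 13). Histidine (0 of 9), tryptophan (0 of 7), selenocysteine (0 of 2) and initiator methionine (0 of 8) had none either. Over all tRNA genes 42 of 443 had such a region, so 0 in any of the smaller sets is not read as an absence. Near-identical tRNA genes can share reads and the handling of reads with several matches is not given in the sources used here, so the counts by amino acid are of annotated places and not of independent tRNAs. Chromosome 6, which holds 155 of the 443 genes (35.0%), held 12 of 33 and 9 of 32 of these regions, a share near that of the genes.

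Among single tRNA genes TRL-CAG2-2, a leucine tRNA gene at chr16, ranked highest in the RPL22 set. Its peak at chr16:57300463-57300524 scored 162304 (rank 10 of all peaks in the RPL22 set), and that in the RPL22L1 set, chr16:57300465-57300494, scored 37314 (rank 102). The threonine gene TRT-TGT6-1, shown above, scored 130358 (rank 14) and 52674 (rank 80). The methionine gene TRM-CAT1-1 had the highest score of the group in the RPL22L1 set, 142102 (rank 45), and scored 56408 (rank 38) in the RPL22 set. These 3 genes were very high in both sets, with summits 1, 3 and 1 bases outside the gene in each.

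Of the 10 tRNA genes that were very high only in the RPL22 set, 9 had a lower RPL22L1 peak at the same place. Their RPL22 scores ran from 10467 at TRS-GCT5-1 to 56931 at TRQ-TTG3-1, a glutamine gene whose RPL22L1 peak scored 8587. The other, TRQ-TTG3-3, scored 33952 and had no RPL22L1 peak. Among the 9 genes very high only in the RPL22L1 set, TRA-CGC3-1, an alanine gene inside GPD2, scored 90380 and TRL-CAA4-1 scored 19029 without any RPL22 peak, and the other 7 had a lower RPL22 peak. At most of these genes both sets thus had a peak and 1 of them passed the threshold. The pair of tRNA pseudogenes, TRQ-CTG9-1 (79087 in the RPL22 set and 12625 in the RPL22L1 set) and TRS-ACT1-1 (14209 and 13151), showed the same edge position and were very high in both sets.

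Small RNA genes outside the left-out types held 11 loci, a locus being regions of either set within 100 bases of each other. Of these SCARNA14, SCARNA27, SCARNA13 and SCARNA10 were very high in both sets. SCARNA14, at chr15:66347206-66347342, scored 177872 (rank 8) in the RPL22 set and 420908 (rank 17) in the RPL22L1 set, with the summit at the same base, 66347215. SCARNA27 scored 53310 and 63488, SCARNA13 22390 and 18477 and SCARNA10 14115 and 13751, also with the same summit base in both sets. These 4 scaRNAs therefore had 1 common peak position each.

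Other genes of this kind were very high in 1 set. SCARNA4 scored 134193 (rank 13) in the RPL22 set and had no RPL22L1 peak. SCARNA18 (233061, rank 28) and SCARNA28 (103739, rank 52) were in the RPL22L1 set without an RPL22 peak, and SCARNA7 scored 20840 there and 6785 in the RPL22 set. Of 29 scaRNA genes outside the left-out types, 5 held a region in the RPL22 set and 7 in the RPL22L1 set, and 9 and 17 held a summit of any score.

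Y RNA genes held regions in the RPL22L1 set only. RNY1, at chr7:148987136-148987248, scored 413209 (rank 18) and RNY4 scored 72499 (rank 63), whereas 0 of 4 Y RNA genes held a summit of any score in the RPL22 set. RNY3 and RNY5 had no summit in either set. The vault RNA gene VTRNA1-1, at chr5:140711276-140711373, was very high in the RPL22L1 set with a score of 10930 (rank 213), while the RPL22 set had a peak of 5570 (rank 218) at chr5:140711345-140711375, 18 bases away from it and nearer the other end of the gene. The part of the RPL22L1 peak that a promoter window holds, chr5:140711282-140711325, lies wholly inside the gene and is given in capitals on the plus strand of the genome. The pattern used for the strand of tRNA genes was not found there, so the gene's strand was not read. It is shown because the peaks of the sets, 1 in each, lay nearer different ends of this gene.
VTRNA1-1, RPL22L1 set: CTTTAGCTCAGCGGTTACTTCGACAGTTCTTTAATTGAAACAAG

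Pseudogene copies of small RNAs held 9 loci, of which 4 were very high in both sets. The highest were copies of U5, the snRNA that aligns exons during splicing. RNU5E-6P scored 269397 (rank 4) in the RPL22 set and 947384 (rank 5) in the RPL22L1 set with the same summit base. RNU5E-4P scored 96802 (rank 21) and 494854 (rank 14), and the annotated gene RNU5E-1 near it, chr1:11908152-11908272, held peaks of 501266 (rank 2) and 653433 (rank 10). The copies of U1, the snRNA that recognises 5′ splice sites, were RNU1-88P (26838 and 51281) and RNU1-7P (19928 and 11607). The annotated genes RNU1-1 to RNU1-4 held no summit in either set. As with tRNA genes, reads can match several such places and their handling is not given. A place with or without a summit is therefore not read as the source of the RNA. Of the annotated U5 genes RNU5D-1 also held a very high peak in both sets (83627 and 153451), while RNU5B-1 and RNU5F-1 held one in the RPL22L1 set only (823043 and 584799) and no summit in the RPL22 set.

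Copies that were very high in 1 set were RNA5-8SP3, a 5.8S rRNA copy, in the RPL22 set (13050, no RPL22L1 peak), and 4 in the RPL22L1 set. RNU5A-8P scored 67970 and had no RPL22 peak, and its parent gene RNU5A-1 held 1852929 (rank 4) in the RPL22L1 set and no summit in the RPL22 set. RNY1P13, a copy of the Y RNA gene RNY1, scored 64854 and RNU4-46P scored 22164, both without an RPL22 peak. RNU6-31P scored 16144 and had an RPL22 peak of 5676. RNU4-1, RNU4-2 and RNU6-1 held no summit in either set, which is likewise not read as a lack of binding to these RNAs. Very high copies were few among those annotated: 5 and 8 of 3461, with 249 (7.19%, 6.36 to 8.11) and 280 (8.09%, 7.20 to 9.05) holding a summit of any score. No copy of 7SK (292 annotated), 7SL (681) or 5S rRNA (504) held a very high peak in either set, though 60, 18 and 47 of them held a lower one in the RPL22 set and 32, 14 and 24 in the RPL22L1 set.

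MALAT1, an abundant nuclear lncRNA, held 11 of the 119 regions of the RPL22L1 set and 1 of the 89 of the RPL22 set. The gene spans chr11:65497738-65506516 (8779 bases) and overlaps its antisense gene TALAM1. As the sets give no strand, peaks of the pair cannot be told apart. In the RPL22L1 set 23 summits lay within its bounds, with the very high ones scoring 10175 to 90689, and in the RPL22 set 2 did, at 11799 (rank 129) and 2984 (rank 312). Both RPL22 summits were at the same base as an RPL22L1 summit, 6958 and 7248 bases from the lower-coordinate end, where the RPL22L1 scores were 90689 (rank 54) and 19163 (rank 147). The other 9 very high RPL22L1 peaks in MALAT1 shared no base with an RPL22 peak. MALAT1 peaks of the RPL22L1 set were wide, with a median of 64 bases (51 to 102) for the very high ones.

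**Figure D3:**
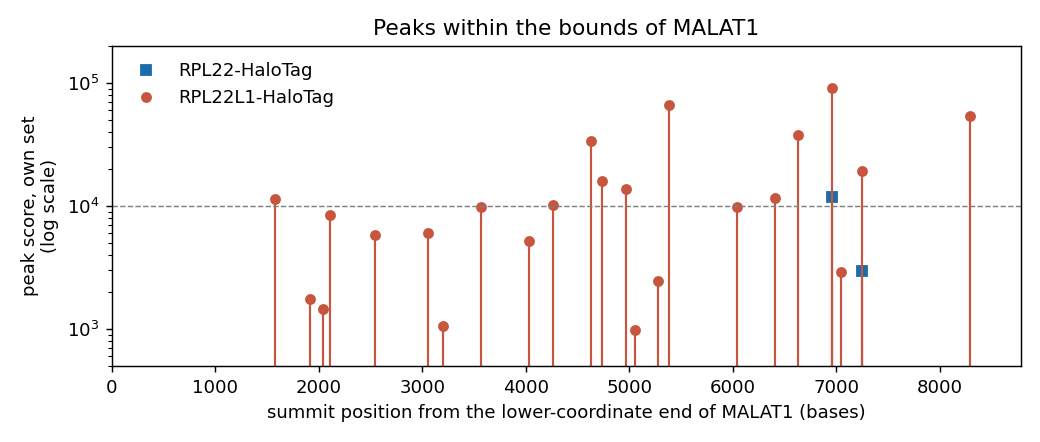
Score on a log axis against summit position for every peak within the bounds of MALAT1, 2 in the RPL22-HaloTag set (squares) and 23 in the RPL22L1-HaloTag set (circles), with the threshold of 10000 as a dashed line. Both squares sit at the position of a circle, at 6958 and 7248 bases.

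Protein-coding genes held 20 regions of the RPL22 set and 26 of the RPL22L1 set that were not at a tRNA gene, at 35 loci of which 11 were very high in both. Most were narrow, with median widths of 30.5 and 31 bases, the smallest width in either set being 30. The highest peak of each whole set was the same place in the zinc-finger gene ZNF773, chr19:57513035-57513064, with scores of 1395972 and 5210944 and identical bounds. It was 30 bases wide and the only summit within the gene in each set, and the sets give no strand. MYOCOS followed with 244230 (rank 5) and 687290 (rank 8). ACTR3C, related to an actin-nucleating protein, scored 52430 and 180099 with identical bounds at chr7:150143254-150143283, and HAUS7, a subunit of the augmin complex, scored 85313 and 50785. Genes very high in both sets further were DGLUCY (23968 and 87467), which encodes a D-glutamate cyclase, RPL15 (18284 and 16384), another protein of the ribosome's large subunit, PRKCI (11271 and 11266), an atypical protein kinase C, MYT1L (15478 and 10200), a neuronal transcription factor, SWT1 (21650 and 10262), NHSL2 (14861 and 10263) and ACOT7 (19144 and 10104), an acyl-CoA thioesterase. The median gap between the summits of both sets at such places was 0 bases.

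Among the 9 protein-coding loci very high only in the RPL22 set, 6 had a lower RPL22L1 peak. The glycolytic gene GAPDH scored 37243 (rank 51) and the RPL22L1 peak that overlaps it 822, the lowest score and, at rank 3230, the lowest rank of any peak matched to a region of the RPL22 set. The highest of the 3 RPL22L1 peaks in GAPDH, at another place, scored 2896 (rank 494). EFNB1, an ephrin ligand, scored 28548, with 4367 in the RPL22L1 set. HMGA1, a chromatin protein, scored 10572, and WDR7 (11468) and the potassium channel gene KCNK4 (10338) completed the 3 whose place had no RPL22L1 peak. HMGA1 held 9 RPL22L1 summits at other places, the highest scoring 1800 (rank 768). Of 15 loci very high only in the RPL22L1 set, 11 had no RPL22 peak at that place. They included ZNF536 (186777, rank 34), the mucin gene MUC16 (16252) and the histone H4 gene H4C2 (18515). VMP1, an autophagy gene, held the widest region of either set, 132 bases, with a score of 27319 and an RPL22 peak of 7302.

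The remaining high one of the RPL22L1 set, 606462 (rank 11), had its summit within the bounds of LOC102724250 and no RPL22 peak. It lay at chr1:630718-630757, between pseudogene copies of mitochondrial genes, MTND2P28, which ends at 630686, and MTCO1P12, which starts at 631074. A peak in MTRNR2L8, a pseudogene in RefSeq, scored 12756 in the RPL22L1 set and 5282 in the RPL22 set. The pseudogenes LOC124906192 (58757, RPL22L1 set) and LOC124901556 (10453, RPL22 set) had no peak in the other set. A peak of 13412 in the RPL22L1 set lay in the T cell receptor alpha locus TRA, with 6713 in the RPL22 set.

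Of the lncRNA genes other than MALAT1, TPTE2-AS1 and EPCAM-DT were very high in both sets. TPTE2-AS1 scored 116439 (rank 18) and 657813 (rank 9) with identical bounds, chr13:19587489-19587518. EPCAM-DT, the divergent transcript of the epithelial gene EPCAM, scored 18359 and 17814. In the RPL22 set NKX2-1-AS1 (23599) had no RPL22L1 peak, and LY86-AS1 (12280) had one of 9047. LINC02533 (17679) and, without an RPL22 peak, CARINH, LOC105379080 and CHD1-DT (11154 to 19740) were in the RPL22L1 set. lncRNA regions thus included both shared peaks and peaks of 1 set.

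Outside genes and away from tRNA genes lay 18 regions of the RPL22 set and 21 of the RPL22L1 set, at 29 loci, of which 10 were very high in both. The nearest gene was a median of 11714.5 and 13325 bases away, with a range of 642 to 163239 bases in both sets. All 18 of the RPL22 set shared bases with an RPL22L1 peak, as did 16 of 21 (76.2%, 52.8 to 91.8) the other way. At chr2:166743626-166743656 the RPL22L1 set scored 351967 (rank 22) and the RPL22 set had no peak. A place on chromosome 6, chr6:26749898-26749937 in the RPL22L1 set, scored 52239 there and 35721 in the RPL22 set with the same summit base. Its nearest gene was the tRNA pseudogene TRUND-NNN1-1, 642 bases away. Bounds were identical in both sets at chr18:4839302-4839331, which scored 10977 in the RPL22 set and 45106 in the RPL22L1 set.

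Presence in the other set, which the choice of regions did not use, was counted as at least 1 shared base with any of its peaks. Of all peaks 17.4% of the RPL22 set and 10.6% of the RPL22L1 set met this. Of the regions 81 of 89 (91.0%, 83.1 to 96.0) in the RPL22 set and 80 of 119 (67.2%, 58.0 to 75.6) in the RPL22L1 set did. The matched peak was itself a very high one outside these genes in 57 of 89 (64.0%, 53.2 to 73.9) and 57 of 119 (47.9%, 38.7 to 57.2). Summits were within 2 bases of each other in 68 of 81 and 73 of 80, while both bounds were equal in 17 and 14. A matched peak stood high in its own set, no lower than rank 3230 in the RPL22L1 set and 646 in the RPL22 set. If at least 50% of both peaks had to be shared, 68 of 89 (76.4%) and 67 of 119 (56.3%) were present.

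Other high peaks were also often present in the other set. Very high peaks inside snoRNA, snRNA and tRNA genes were present in the other set at 59 of 65 (90.8%, 81.0 to 96.5) and 60 of 104 (57.7%, 47.6 to 67.3). Outside these genes peaks of 1000 to below 10000 were present at 365 of 445 (82.0%, 78.1 to 85.5) and 1024 of 1812 (56.5%, 54.2 to 58.8). In the RPL22 set the share outside these genes was 11.7% below a score of 100 and 90.3% from 10000 to below 30000. In the RPL22L1 set it was 5.87% and 70.9% in these score ranges, and 8 of 14 (57.1%, 28.9 to 82.3) from 100000 upwards. From 10000 upwards the intervals of the score ranges overlap within each set, and no order among these is read.

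**Figure D4:**
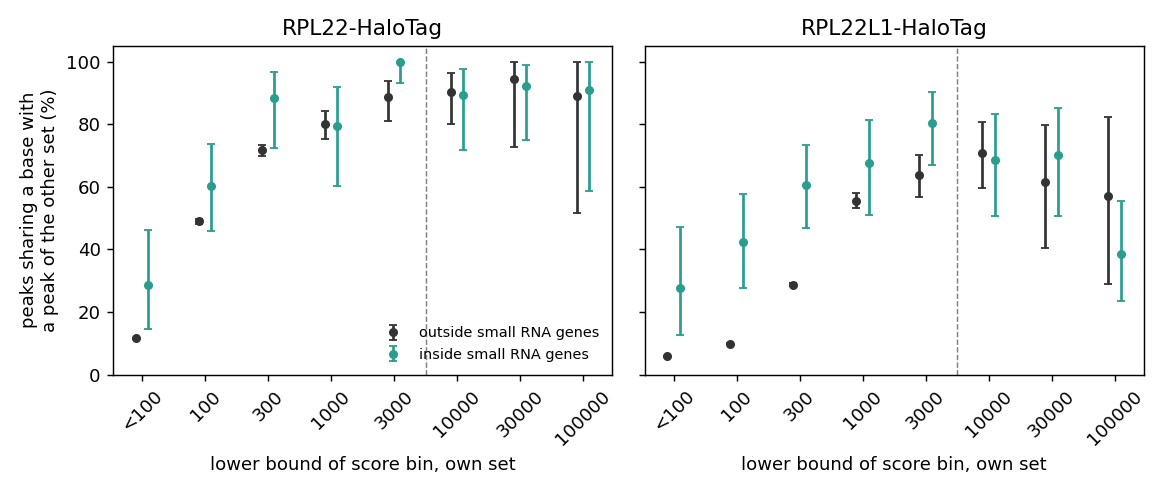
Share of peaks that shared a base with a peak of the other set, by score range within each set, for summits outside (black) and inside (green) snoRNA, snRNA and tRNA genes, with exact 95% intervals and the threshold of 10000 as a dashed line. Outside these genes the share is 11.7% and 5.87% in the lowest range and 90.3% and 70.9% in the range from 10000 to below 30000.

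Places without a match were 8 in the RPL22 set and 39 in the RPL22L1 set. In the RPL22L1 set 9 of the 39 lay in MALAT1, and without MALAT1 78 of 108 (72.2%, 62.8 to 80.4) were present. Of the 10 highest regions 9 of the RPL22 set were present in the RPL22L1 set, the exception being SCARNA4, and 6 of the RPL22L1 set in the RPL22 set, the exceptions being LOC102724250, RNY1, the place on chromosome 2 and SCARNA18. By loci, 57 of 150 were very high in both sets. Of 32 that were so only in the RPL22 set 24 had a lower RPL22L1 peak, and of 61 only in the RPL22L1 set 23 had a lower RPL22 peak and 38 none. The RPL22L1 set is the longer one, and the part of set length and read depth in these counts was not tested.

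**Figure D5:**
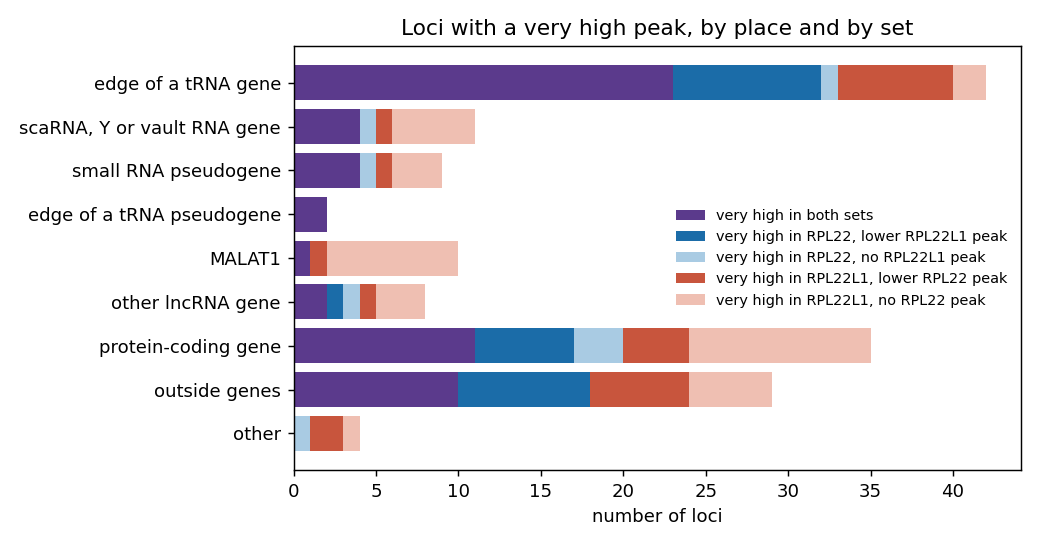
Number of loci, with regions of either set within 100 bases joined, by place and by whether the locus was very high in both sets, or in 1 set with a lower peak or no peak in the other. Edges of tRNA genes (42 loci) are mostly very high in both sets (23) or have a lower peak in the other, while 8 of 10 MALAT1 loci have no RPL22 peak.

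The regions were wider than most peaks of the sets, as were other high peaks. Median width was 33 bases (30 to 90) in the RPL22 set and 39 (30 to 132) in the RPL22L1 set, with 34 and 41 for very high peaks inside snoRNA, snRNA and tRNA genes. Peaks of exactly 30 bases made up 22 of 89 (24.7%) and 24 of 119 (20.2%), against 80.8% and 83.8% of all peaks. Peaks of 1000 to below 10000 outside these genes were much like the regions, at 24.5% and 17.9% with median widths of 35 and 49 bases, so this shape is not particular to the regions. Groups differed in this: at tRNA gene edges the median was 50 and 54.5 bases, while in protein-coding genes, lncRNA genes other than MALAT1 and outside genes 28 of 42 (66.7%, 50.5 to 80.4) and 29 of 53 (54.7%, 40.4 to 68.4) were 30 to 32 bases wide.

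The threshold fell within a continuous run of scores. Just inside it were KCNK4 (10338), LOC124901556 (10453) and the edge of TRS-GCT5-1 (10467) in the RPL22 set and ACOT7 (10104), a MALAT1 peak (10175) and MYT1L (10200) in the RPL22L1 set. Just outside it were the edges of TRX-CAT1-6 (9721) and TRC-GCA17-1 (9718) and a place outside genes (9294) in the RPL22 set and, in the RPL22L1 set, the edges of TRS-AGA2-5 (9861) and TRX-CAT1-2 (9856) and another MALAT1 peak (9830). The initiator methionine genes, with no edge region past the threshold, thus had an edge peak just below it in each set. TRS-AGA2-5 was very high in the RPL22 set with 23587, so some of the genes named for 1 set missed the threshold narrowly in the other.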

How the data were processed

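GoldCLIP-seq peak lists of 2 libraries in HCT116 cells were used, 1 per genotype. Per the submitters' processing notes, which give names without roles, cutadapt 4.8, STAR 2.7.10a, UMI-tools 1.1.5 and MACS3 3.0.0a6 were used with hg38. The control, the parameters and the handling of reads with several matches are not given in the sources used here. The deposited score of each peak is the authors' whole-number score on an unstated scale, called per library. Positions are counted from 1, and the summit is the peak start plus the deposited offset.

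A summit was given to the shortest RefSeq gene of GRCh38 holding it. A peak was present in the other set with at least 1 shared base. Shares carry exact Clopper-Pearson 95% intervals. Genes named were, per set, the 10 highest regions, genes with regions in both sets or with several in 1, pseudogenes and small RNAs, tRNA gene edges and the 3 places on either side of the threshold. Of these, 1 place is not reported here. Others named in the text were chosen after their values were seen. The regions and gene sets were chosen with earlier results of these data known. Overlap and gene assignment were tested on planted positions. Alternatives were thresholds of 5000 and 20000, whole peaks outside small RNA genes, further RNA types left out, joined loci, another gene rule and other overlap rules. Scripts ran in Python 3.11.15 with scipy 1.17.1, pandas 2.3.3, numpy 2.4.6 and matplotlib 3.10.9.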

Additional observations from a re-analysis of the deposited data

How the results depend on the processing

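Of 48 values under alternatives 35 stayed within the interval of the reported share or within 1.5 times the reported count. Number of regions: 144 and 215 at a threshold of 5000 (RPL22 set, then RPL22L1 set), 37 and 61 at 20000, and 58 in the RPL22 set when the whole peak had to lie outside snoRNA, snRNA and tRNA genes. That last rule, which drops peaks across a gene's edge by construction, lowered the share near such genes to 3.45% and 2.25% and the share outside all genes from 50.6% to 36.2% and from 39.5% to 28.1%, and raised the share in protein-coding genes from 24.7% to 36.2% in the RPL22 set. Counting any protein-coding gene that holds the summit raised it from 25.2% to 34.5% in the RPL22L1 set. With 50% of both peaks shared, 76.4% and 56.3% were present in the other set. The comparison of bases with small RNA genes was not run, as no genome sequence was used. No paired analysis was possible because each group has 1 library. The number of reads is unknown, and a place without a peak may be one below the limit of calling.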
